A study of Mus musculus with 40 samples.

Results

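This report describes 9 genes of the interleukin-4 and interleukin-13 (IL-4/IL-13) response in the mammary gland of ovariectomised mice, out of 47729 gene symbols in the count tables. They are the receptor subunits Il4ra, Il13ra1 and Il2rg, the transcription factor Stat6, the alternative activation markers Arg1, Retnla, Chil3 and Mrc1, and Nos2, the enzyme most often used as the marker of classical activation. The set was selected on the measured estrogen fold changes of Il4ra, which stood among the leading rises at both times sampled, and the other 8 genes were added by name. The estrogen values of Il4ra are therefore a description and carry no test, while the remaining members were tested in each comparison where they passed the filter on low counts (Chil3 did not in the tables of 84 h and 132 h).

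All animals were Balb/cJ mice whose ovaries had been removed at 21 days of age, followed by 7 days of recovery, so every group, controls included, lacked ovarian hormones. They then received a defined control diet, that diet with conjugated linoleic acid (CLA, a family of fatty acid isomers) supplying fat at 2.7%, or that diet while drinking water containing estrogen at 200 nM. Control and estrogen mice were killed at 60 h and 84 h, and control and CLA mice at 108 h and 132 h, giving 8 groups of 5 mice, each described by the submitters as biological replicates. RNA came from 1 number 4 inguinal mammary gland per mouse, from which the lymph node had been taken out, and strand-specific poly(A) libraries were sequenced. Whole tissue was measured, so fewer cells of a type and less RNA per cell cannot be told apart in any value below. The animal numbers of the estrogen groups form a run of their own, apart from all controls, so that run and estrogen cannot be told apart. CLA at 108 h or 132 h has no estrogen group killed at the same time.

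Libraries held 18183713 to 40026800 counts. Levels are CPM, counts scaled to the normalised library total, on 1 scale over the 40 libraries. Fold changes are log2 values ± standard error (SE), a gene was called changed when its Benjamini-Hochberg adjusted p over all genes tested was under 0.05, and the adjusted p is that of edgeR's quasi-likelihood test unless limma is named. Levels of different genes are compared only as RPKM, the length-scaled values computed by the authors. Adipocyte genes, the markers of the mammary fat pad, were abundant (mean log2 CPM of 8 genes from 8.83 to 10.6 across libraries), and all 13 macrophage markers with a symbol in the tables were detected in every library. Skin and hair genes stood apart in 9 libraries (mean log2 CPM of 18 genes from 2.42 to 6.42, against at most 0.98 in the other 31). These were 5 controls (2 from 108 h and 3 from 132 h) and 4 estrogen libraries (1 from 60 h and 3 from 84 h).

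IL-4 binds IL-4 receptor alpha, the product of Il4ra, which pairs with the common gamma chain (Il2rg) on blood cells or with Il13ra1 on many other cells. The second pair also binds IL-13. Both receptors signal through Janus kinases to Stat6, which enters the nucleus and switches on genes such as Arg1, Retnla, Chil3 and Mrc1 in mouse macrophages, a state called alternative activation. Il4ra is also expressed by lymphocytes and epithelial cells, and signalling through Stat6 has a known part in the development of the mammary epithelium. Macrophages are common in the fat pad of the gland, where they are needed for the outgrowth of its ducts.

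The stretches upstream of Il4ra, Retnla and Mrc1 are shown because Il4ra was the member chosen for its rise with estrogen, and Retnla and Mrc1 were the alternative activation markers called higher with CLA at 132 h. RefSeq promoter windows on build GRCm38.p6 matched 7 of the 9 members, all but Arg1 and Nos2. Each window holds the 250 bases before the RefSeq start, and the print stops before the first base of the gene in GENCODE M21. Capitals mark the palindrome bound by STAT6, TTC and GAA with any 4 bases between.
Il4ra: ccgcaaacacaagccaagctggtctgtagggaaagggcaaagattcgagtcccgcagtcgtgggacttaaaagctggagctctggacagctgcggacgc
Retnla: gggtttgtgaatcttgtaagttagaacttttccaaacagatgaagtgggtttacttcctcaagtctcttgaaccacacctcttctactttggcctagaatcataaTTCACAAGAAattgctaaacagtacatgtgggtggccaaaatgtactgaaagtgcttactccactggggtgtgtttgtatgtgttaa
Mrc1: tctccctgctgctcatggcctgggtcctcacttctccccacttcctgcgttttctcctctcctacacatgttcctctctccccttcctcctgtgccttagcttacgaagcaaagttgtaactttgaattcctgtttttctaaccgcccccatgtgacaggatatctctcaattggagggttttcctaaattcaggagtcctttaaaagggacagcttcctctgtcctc
They lie on the plus strand at chr7:125552021-125552119, chr16:48842359-48842550 and chr2:14229164-14229391. Among the 7 windows searched on both strands, this palindrome was found in 1, that of Retnla, starting 145 bases before the RefSeq start (chr16:48842464-48842473). Of 32851 RefSeq promoter windows of the same length, 5.85% held it. The estrogen response element, GGTCA and TGACC with any 3 bases between, was in 0 of the 7 windows and in 0.0639% of all windows. A match is a run of letters, and its absence from a window says nothing about the factor.

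By RPKM averaged over the 40 libraries, Retnla was the most abundant member at 83.8 ± 33.7 (SD, n = 40), above 99.2% of all genes. Mrc1, the mannose receptor, followed at 24.7 ± 14.3 and Stat6 at 21.4 ± 3.59. Arg1 averaged 11.7 ± 20.3, Il4ra 8.73 ± 3.81, Il13ra1 6.38 ± 1.35, Il2rg 5.70 ± 1.68 and Nos2 2.98 ± 0.986. Chil3 was the scarcest at 0.115 ± 0.123. Stat6 was the steadiest member, with a highest CPM 1.59 times its lowest. Among the 8 members detected in every library Arg1 was the least steady, with a highest CPM 235 times its lowest, while Chil3 was at 0 in 3 libraries.

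**Figure D1:**
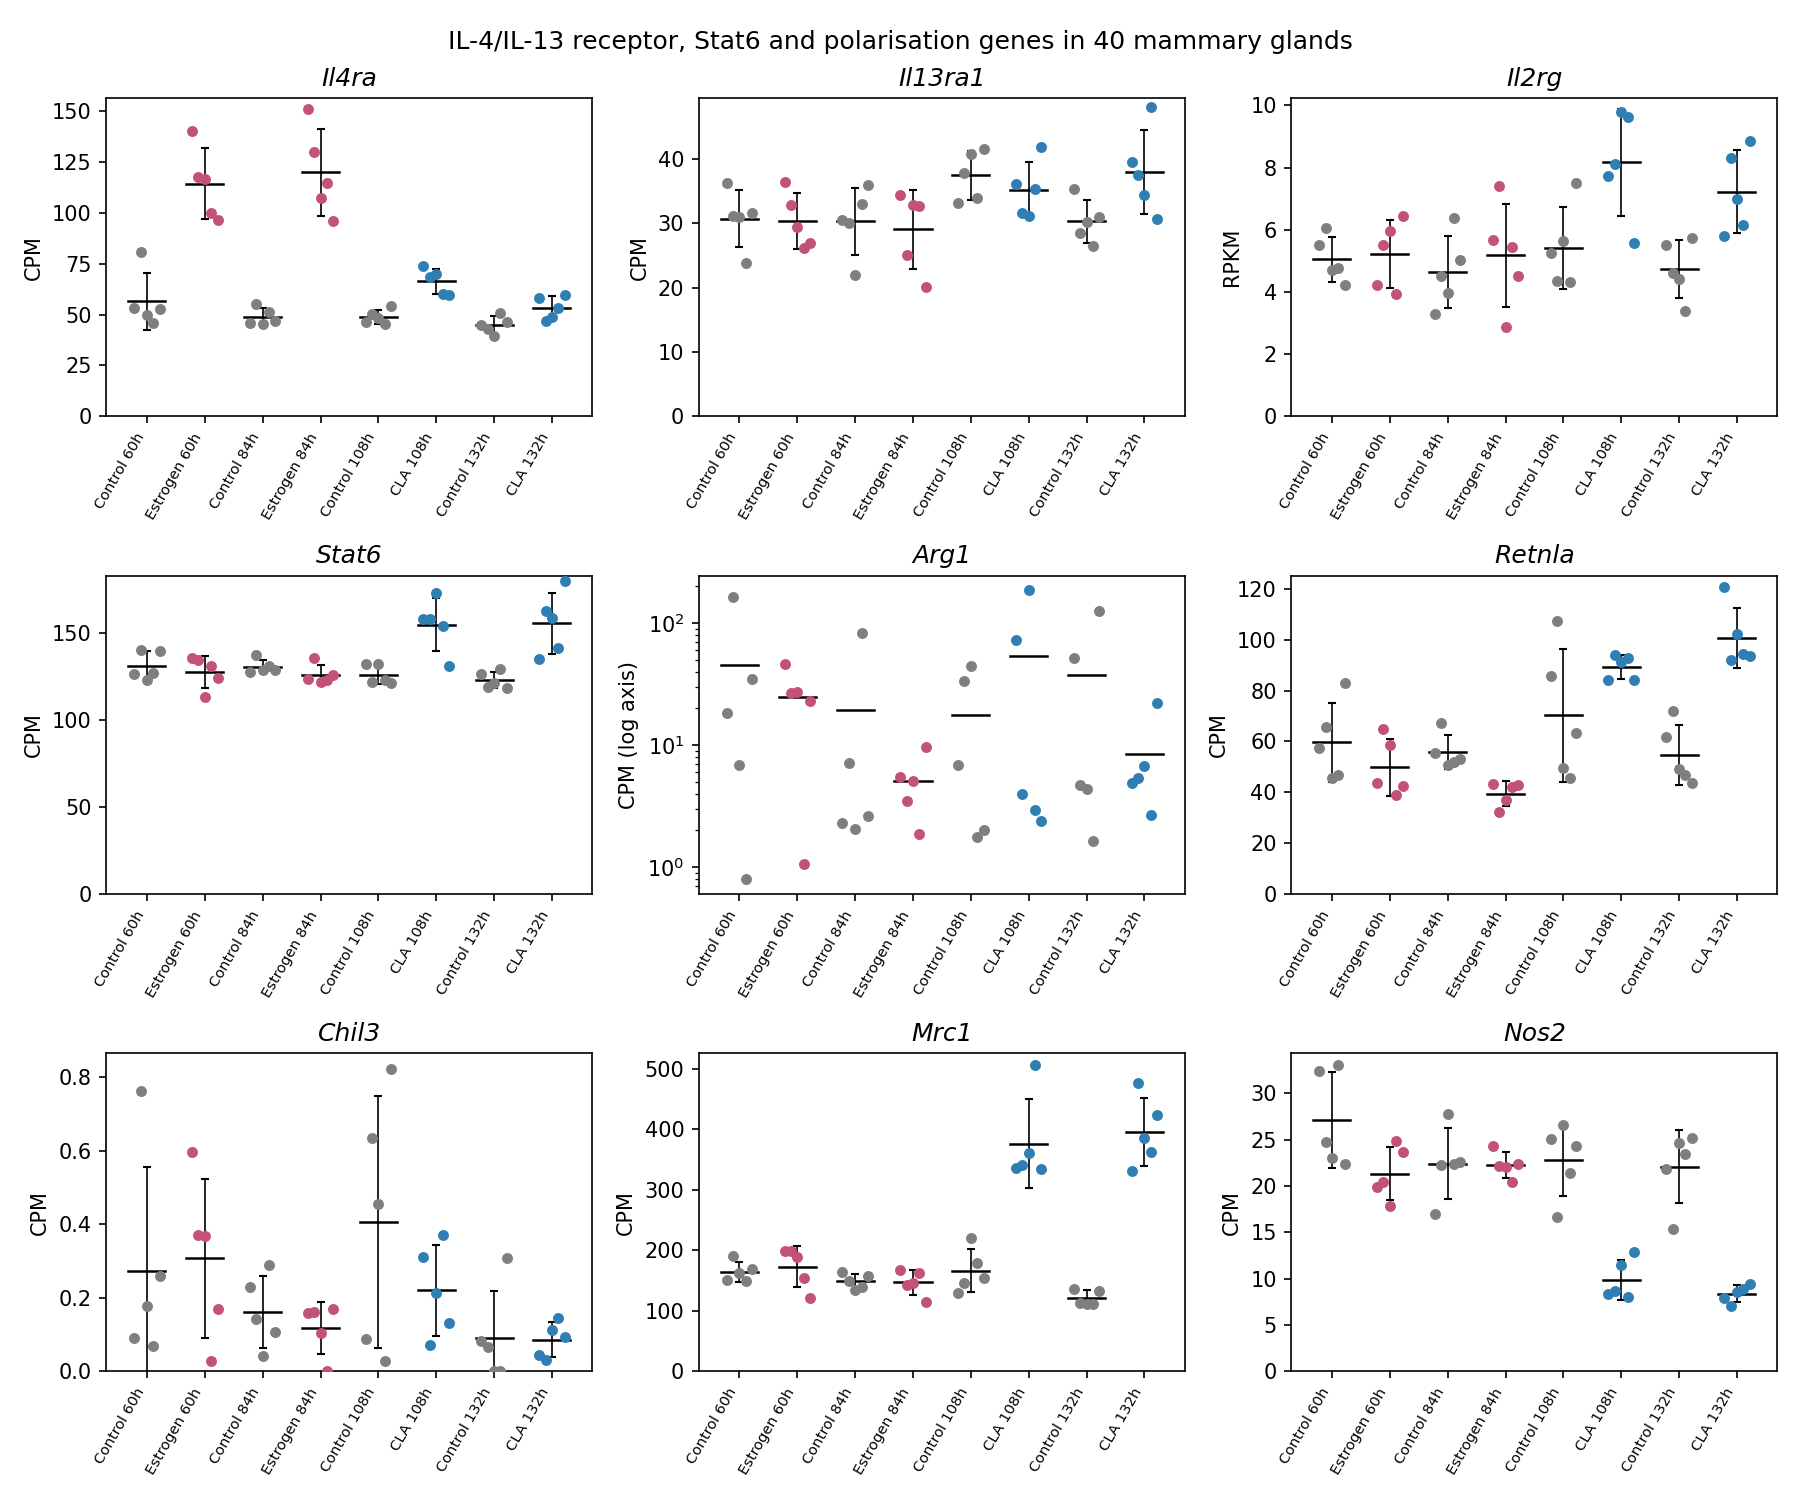
Levels of the 9 members in the 8 groups, 1 panel per gene, as CPM (Il2rg as RPKM, Arg1 on a log axis). Points are the 5 libraries of a group, lines the mean and bars ± SD (no bar for Arg1). Il4ra is highest in the estrogen groups, Mrc1 and Stat6 are highest and Nos2 lowest in the CLA groups, and Arg1 spreads widely inside the groups.

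Il4ra lies on chromosome 7 (125552120 to 125579474, plus strand, GENCODE M21 on GRCm38) and is overlapped on the opposite strand by the antisense gene Gm44876. At 60 h its 5 control libraries held 53.1, 80.9, 49.7, 46.0 and 53.0 CPM, and its 5 estrogen libraries 140.2, 118, 117, 100.1 and 96.3 CPM. At 84 h the controls held 45.8, 55.2, 45.4, 51.5 and 46.7 CPM, and the estrogen libraries 151, 130.1, 108, 115 and 95.9 CPM. Every estrogen library lay above every control at its time, and 1 control at 60 h stood above its group. The log2 fold changes that led to the choice of the gene were 1.02 ± 0.13 at 60 h and 1.30 ± 0.11 at 84 h, or 2.02-fold and 2.46-fold. Leaving out the control at 80.9 CPM gave 1.18 at 60 h. Il4ra was above 96.1% of all genes by log2 fold change at 60 h and above 96.6% at 84 h.

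With the CLA diet Il4ra moved less. At 108 h controls held 46.2, 50.1, 48.5, 45.2 and 54.2 CPM and CLA libraries 73.7, 68.6, 69.8, 60.4 and 59.5 CPM. The groups did not overlap, and the rise was called (log2 fold change 0.44 ± 0.13, edgeR adjusted p 0.00778, n = 5 per group). At 132 h controls held 45.1, 43.1, 39.3, 50.8 and 46.2 CPM and CLA libraries 58.2, 46.6, 48.8, 53.4 and 59.9 CPM. These groups overlapped, and the difference of 0.24 ± 0.11 missed the threshold (edgeR adjusted p 0.0607). Its call at 132 h turned on single libraries, on the filter on low counts and on the unit. Without CLA replicate 2 or without control replicate 4 the edgeR adjusted p was 0.0348 or 0.0379. With no filter or a minimum count of 50 it was 0.0470 or 0.0477. By limma on log2(RPKM + 0.1) the difference was 0.41 with adjusted p 0.00453. Without the libraries rich in skin genes edgeR gave 0.13 with adjusted p 0.433. The CLA log2 fold change minus that of estrogen was -0.57 ± 0.18 for the early pair (108 h and 60 h) and -1.06 ± 0.15 for the late pair (132 h and 84 h), given without a test because the estrogen values chose the gene.

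Over the 8 groups, mean Il4ra was highest with estrogen at 84 h (119.9 ± 21.3 CPM, SD, n = 5) and at 60 h (114 ± 17.4), which differed by less than their SDs. A gap larger than the SDs separated them from CLA at 108 h (66.4 ± 6.19). Then came control at 60 h (56.5 ± 13.9), CLA at 132 h (53.4 ± 5.74) and controls at 84 h (48.9 ± 4.27), 108 h (48.8 ± 3.54) and 132 h (44.9 ± 4.22), with no neighbours in that order further apart than their SDs. Between controls of different times no difference was called for Il4ra (108 h against 60 h, edgeR adjusted p 0.359, and 132 h against 84 h, 0.723).

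Estrogen also moved luminal markers, genes of the inner cell layer of the ducts. Of 12 luminal genes tested, 10 rose and 0 fell at 60 h (median log2 fold change 2.34, against -0.002 over all genes), with 6 higher and 0 lower at 84 h (median 2.20, against -0.01). Estrogen raised 4.07% and lowered 2.42% of all genes at 60 h, and 3.45% and 1.97% at 84 h. Krt8, a luminal keratin, went from 3.45 ± 3.46 to 29.4 ± 14.3 CPM at 60 h. The mean log2 CPM of the 12 genes ran from 0.19 to 3.23 in the 60 h controls against 3.68 to 4.83 under estrogen, and from 0.51 to 3.75 against 4.39 to 5.22 at 84 h. Without the libraries rich in skin genes 7 luminal genes rose at 60 h (median 2.24) and 0 at 84 h (median 2.13), where 2 estrogen libraries remained and 303 of all genes were called. Control mice at 108 h had luminal means of 2.94 to 4.25, overlapping those of estrogen at 60 h, with Il4ra at 45.2 to 54.2 CPM. The part of the luminal cells in the Il4ra difference was not tested.

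The genes most like Il4ra over the 40 libraries were found by the root-mean-square difference between log2 CPM profiles, each centred on its own mean, among 12309 genes. Agps, an enzyme of ether lipid synthesis, was nearest (0.33 log2 units, Pearson's r = 0.83). It was followed by Plod2, a collagen lysyl hydroxylase (0.35, r = 0.77), Cd320, the receptor for transcobalamin (0.37, r = 0.84), and Serpina3n, a serine protease inhibitor (0.37, r = 0.73). These correlations are descriptions, since the libraries share groups and depth. In the 60 h controls Agps averaged 62.4 ± 3.48 CPM, against 94.2 ± 18.5 under estrogen, and the 84 h values were 59.5 ± 3.58 and 106 ± 8.12.

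The partner chains moved otherwise. Il13ra1 lies on chromosome X (36112110 to 36171259, plus strand) and ranged from 20.1 to 48.1 CPM. It was 37.4 ± 3.81 CPM in controls and 35.2 ± 4.32 with CLA at 108 h (edgeR adjusted p 0.527). At 132 h it was 30.3 ± 3.34 and 38.01 ± 6.53, with a log2 difference of 0.31 ± 0.15 that missed the threshold (edgeR adjusted p 0.0818), while limma on RPKM called it (0.46, adjusted p 0.0334), as did edgeR without CLA replicate 5 (adjusted p 0.0449). With estrogen it differed by -0.02 ± 0.11 at 60 h and -0.06 ± 0.15 at 84 h (edgeR adjusted p 0.957 and 0.864). Its group means ran from 29.0 ± 6.16 CPM with estrogen at 84 h to 38.01 ± 6.53 with CLA at 132 h, and the 1 gap in that order beyond the SDs lay between CLA at 108 h and control at 60 h.

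Il2rg, the common gamma chain, lies on chromosome X (101264378 to 101268255, minus strand) inside the span of the predicted gene Gm20489 on the same strand (101261405 to 101269023). It had only 6 to 41 counts per library. Its CPM per RPKM was 0.127, or 0.0534 per kilobase of exon, against 1.09 to 1.45 per kilobase in the other 8 members, so its counts and its RPKM do not match. The RPKM is used for it, and which of the deposited values is nearer to its true level was not tested. The 108 h controls held 5.24, 4.36, 5.65, 4.31 and 7.52 RPKM and CLA libraries 7.74, 8.11, 9.80, 9.63 and 5.56. The 132 h controls held 5.50, 4.62, 4.40, 3.39 and 5.75 and CLA libraries 5.79, 8.31, 7.00, 6.14 and 8.86. The groups overlapped at 108 h and did not at 132 h, and both rises were called by limma on log2(RPKM + 0.1): 0.59 ± 0.17 (adjusted p 0.0131) and 0.60 ± 0.22 (adjusted p 0.0311). The sparse counts gave 0.28 and -0.10 with no call (edgeR adjusted p 0.386 and 0.816). With estrogen the RPKM differed by 0.03 ± 0.17 and 0.13 ± 0.22 (limma adjusted p 0.96 and 0.849).

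Receptors that share the gamma chain were a list of 6, with 2 rises and 2 falls called with CLA at 108 h, against 1 rise and 2 falls at 132 h. CLA raised 24.9% and lowered 23% of all genes at 108 h, and 27% and 29% at 132 h. Il7r, the interleukin-7 receptor alpha chain, rose at 108 h from 1.86 ± 0.812 to 32.5 ± 8.90 CPM, and at 132 h from 1.27 ± 0.533 to 42.1 ± 13.8 CPM (log2 fold changes 4.12 ± 0.36 and 5.04 ± 0.43, edgeR adjusted p 6.16e-08 and 2.19e-08). Il15ra, which presents interleukin-15, fell by 0.67 and 1.03, and Il2ra, the high-affinity interleukin-2 receptor chain, by 0.45 and 0.58. T cell markers did not rise together: at 108 h 2 of 7 were higher and 1 lower, and the later time had 0 of 6 higher and 3 lower.

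Stat6 lies on chromosome 10 (127642986 to 127660957, plus strand) and is overlapped on the opposite strand by Nab2. The 108 h controls held 132, 122, 132, 123 and 121 CPM and CLA libraries 158, 158, 173, 154 and 131. The 132 h controls held 126, 119, 122, 129 and 119 CPM and CLA libraries 135, 163, 159, 142 and 180.0. All CLA libraries lay above the control mean at both times, and the groups were separate at 132 h. Stat6 rose by 0.29 ± 0.066 (edgeR adjusted p 0.0011) and 0.33 ± 0.063 (adjusted p 0.000197), about 1.23-fold and 1.25-fold, a small but steady change. With estrogen it differed by -0.04 ± 0.066 and -0.05 ± 0.063 (edgeR adjusted p 0.784 and 0.706). The CLA change exceeded that of estrogen by 0.33 ± 0.094 for the early pair and 0.38 ± 0.089 for the late pair (edgeR adjusted p 0.0107 and 0.00246). Without the libraries rich in skin genes the late value was 0.40 and its call was lost (adjusted p 0.0525). Of the 8 group means, those of CLA were 155 ± 15.1 and 156 ± 17.7 CPM and the other 6 lay between 123 and 131. The genes most like Stat6 were Rac1, a small GTPase (0.079 log2 units, r = 0.86), Ap2b1, a clathrin adaptor (0.080), H13, a signal peptide peptidase (0.082), and Rpn2, of the oligosaccharyltransferase (0.082).

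The counts of members called have to be read against a broad response to CLA. At 108 h 3 of 9 members were called higher (Il4ra, Stat6 and Mrc1) and 1 lower (Nos2), where 24.9% of 17248 genes tested were called higher and 23% lower. At 132 h 3 of 8 were higher (Stat6, Retnla and Mrc1) and 1 lower (Nos2), where 27% of 17180 genes were called higher and 29% lower, and Chil3 did not pass the filter on low counts. By limma on RPKM 4 were higher and 1 lower at 108 h (21.8% and 11.7% of 24429 genes), and 6 and 1 at 132 h (27% and 12.8% of 24287). The edgeR counts of members are thus near the background at both times. By limma the counts of rises are above theirs, on a scale where more genes of all kinds rose than fell. At 132 h that was 27% against 12.8% by limma, and 27% against 29% by edgeR. Whether the RPKM scale itself lifted the members, Il2rg included, was not tested. Without the 9 libraries rich in skin genes edgeR called 5 members at 108 h, where 42.2% of 17516 genes were called, and 4 at 132 h, where 41.8% of 17514 were. Groups did not overlap for 3 members at 108 h and 4 at 132 h, against 32.2% and 36.9% of all genes.

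**Figure D2:**
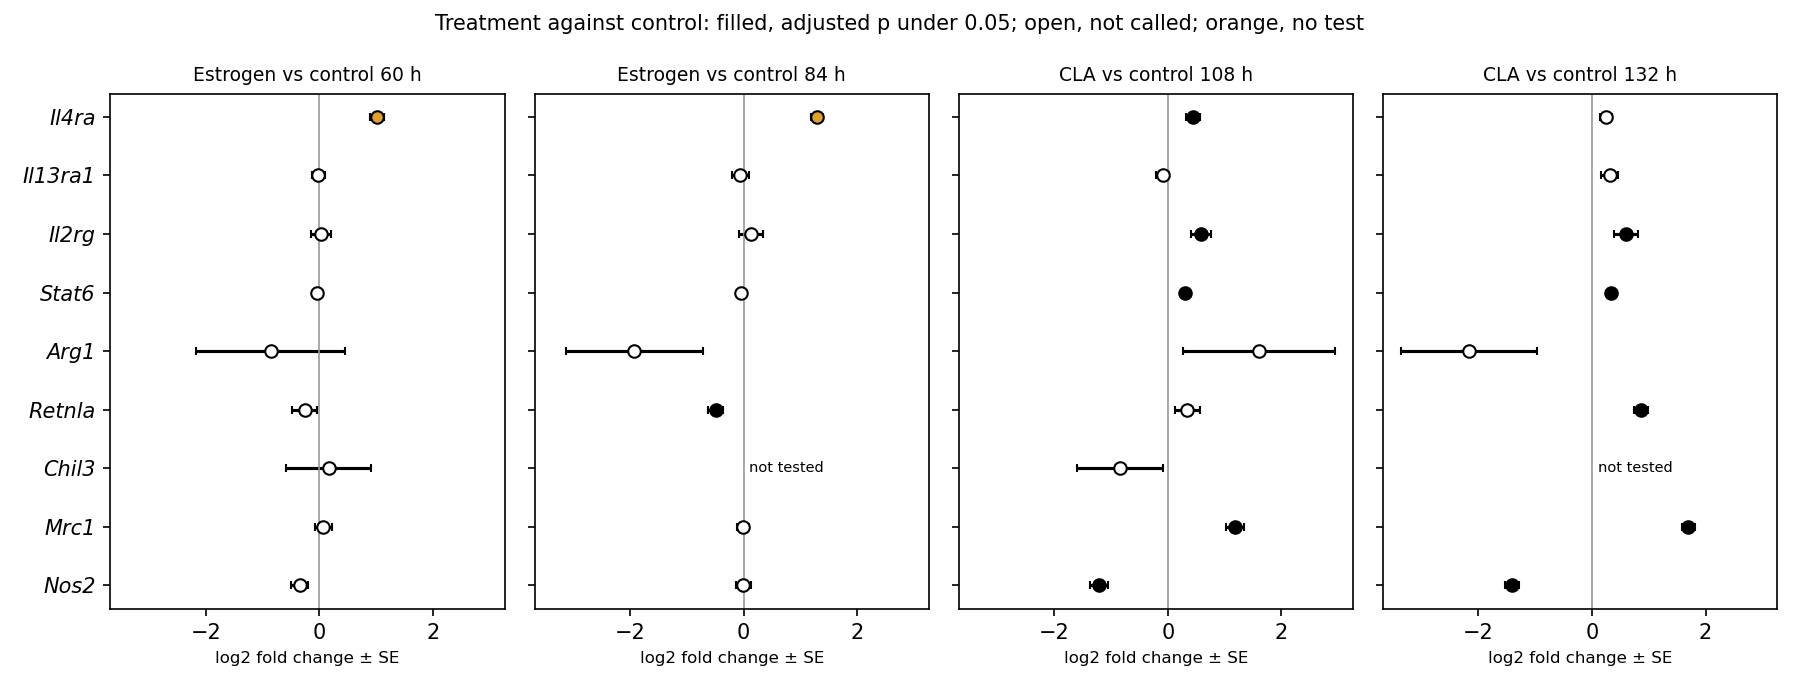
Log2 fold change of each member against its control in the 4 treatment comparisons, with bars of 1 SE (edgeR on counts, limma on log2(RPKM + 0.1) for Il2rg). Filled points were called, open points were not, and orange points carry no test. Mrc1 stands at 1.18 and 1.70 and Nos2 at -1.21 and -1.41 with CLA, and Il4ra at 1.02 and 1.30 with estrogen.

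Retnla encodes a secreted protein that is a classic product of alternatively activated mouse macrophages, and it is also made by fat tissue. It lies on chromosome 16 (48842551 to 48844461, plus strand). At 132 h controls held 61.6, 71.9, 49.3, 46.8 and 43.8 CPM and CLA libraries 121, 92.2, 102, 94.5 and 93.6. Every CLA library was above every control, and Retnla rose by 0.87 ± 0.13 (1.82-fold, edgeR adjusted p 1.13e-05). At 108 h controls held 85.7, 107, 49.4, 45.4 and 63.4 CPM and CLA libraries 84.1, 94.0, 91.4, 92.9 and 84.1. The CLA libraries sat close together inside the wide control range, and the difference of 0.34 ± 0.22 was not called (edgeR adjusted p 0.204). Both high controls at 108 h were rich in skin genes. Without control replicate 2 the difference was 0.55 (adjusted p 0.0325), and without all libraries rich in skin genes it was 0.76 (adjusted p 0.00537).

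With estrogen Retnla pointed down. At 84 h controls held 55.4, 67.3, 50.8, 52.0 and 53.1 CPM and estrogen libraries 43.3, 32.1, 36.9, 41.9 and 42.9, all below the lowest control. It fell by 0.49 ± 0.13 (edgeR adjusted p 0.0288), the 1 call among 7 members tested, where 1.97% of all genes were called lower and 3.45% higher. The call was lost when any of 6 libraries was left out (controls 1, 2 and 5, estrogen 2, 3 and 4, adjusted p 0.0504 to 0.0836), by limma on RPKM (adjusted p 0.0924) and without the libraries rich in skin genes (-0.38, adjusted p 0.163). At 60 h controls ranged from 45.4 to 82.9 CPM and estrogen libraries from 39.0 to 64.8, a difference of -0.26 ± 0.22 (edgeR adjusted p 0.521). The CLA change exceeded that of estrogen by 1.36 ± 0.18 for the late pair (edgeR adjusted p 1.21e-05) and by 0.60 ± 0.31 for the early pair, which was not called (adjusted p 0.143, and 0.0316 without control replicate 2 at 108 h). In order, mean CPM fell from CLA at 132 h (101 ± 11.9) and 108 h (89.3 ± 4.81) through the 4 control groups (70.3 ± 26.1 to 54.7 ± 11.8) to estrogen at 60 h (49.7 ± 11.2) and 84 h (39.4 ± 4.84), and no neighbouring pair differed by more than its larger SD.

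Mrc1 encodes the mannose receptor CD206, an endocytic lectin of tissue macrophages. It lies on chromosome 2 (14229392 to 14332057, plus strand) and hosts the microRNA gene Mir511. At 108 h controls held 129, 146, 221, 179 and 155 CPM and CLA libraries 337, 342, 361, 506 and 335. At 132 h controls held 136, 114, 111, 111 and 133 CPM and CLA libraries 332, 477, 386, 362 and 423. The groups were far apart at both times, and Mrc1 rose by 1.18 ± 0.16 (2.26-fold, edgeR adjusted p 5.35e-06) and 1.70 ± 0.11 (3.24-fold, adjusted p 3.29e-10). It was above 94.9% and 96.3% of all genes by log2 fold change. The larger value at 132 h was not called different from that at 108 h (difference 0.53 ± 0.19, edgeR adjusted p 0.24).

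Under estrogen Mrc1 was 165 ± 16.5 CPM in controls and 173 ± 34.0 at 60 h, and 149 ± 12.5 and 147 ± 20.6 at 84 h (edgeR adjusted p 0.837 and 0.959). The CLA change exceeded that of estrogen by 1.11 ± 0.22 and 1.71 ± 0.15 (edgeR adjusted p 0.000879 and 1.08e-07). Both CLA groups stood a gap beyond the SDs above all others, and controls at 132 h (121 ± 12.7) stood below the rest by more than the SDs. The genes most like Mrc1 over the 40 libraries were Colec12, a scavenger receptor (0.18 log2 units, r = 0.96), Hcls1, an actin regulator of blood cells (0.18, r = 0.96), Serpinb6a, a protease inhibitor (0.18, r = 0.96), and Clec4a1, a lectin receptor of myeloid cells (0.18, r = 0.96).

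Nos2 makes nitric oxide from arginine and competes with Arg1 for it. It lies on chromosome 11 (78920787 to 78960254, plus strand). Controls at 108 h held 25.1, 16.7, 26.6, 21.4 and 24.4 CPM and CLA libraries 8.39, 8.64, 11.4, 8.05 and 12.8. Controls at 132 h held 21.8, 15.4, 24.6, 23.5 and 25.1 CPM and CLA libraries 7.90, 7.10, 8.52, 8.83 and 9.47. Every CLA library lay below every control, and Nos2 fell by 1.21 ± 0.16 and 1.41 ± 0.13 on the log2 scale (edgeR adjusted p 4.43e-06 and 2.8e-08), to 0.433 and 0.376 of the control. Adipocyte genes moved the same way: 7 of 8 markers fell at both times (medians -0.89 and -1.09), where 23% and 29% of all genes fell. At 108 h their mean log2 CPM ran from 10.0 to 10.4 in controls and from 8.997 to 9.64 with CLA. The part of adipocytes in the fall of Nos2 was not tested.

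Nos2 averaged 27.1 ± 5.21 CPM in the 60 h controls against 21.3 ± 2.85 under estrogen, a difference of -0.35 ± 0.15 that was not called (edgeR adjusted p 0.181). At 84 h it was 22.4 ± 3.84 and 22.3 ± 1.39 (adjusted p 0.994). The CLA change lay below that of estrogen by 0.86 and 1.41 log2 units (-0.86 ± 0.22 and -1.41 ± 0.18, edgeR adjusted p 0.00591 and 7.26e-06). The 6 groups without CLA had means from 21.3 to 27.1 CPM, and both CLA groups were lower by more than the SDs (9.87 ± 2.14 and 8.36 ± 0.905).

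Arg1, the arginase of alternative activation, was the member whose libraries differed most inside a group. It lies on chromosome 10 (24915221 to 24927484, minus strand). At 60 h controls held 18.5, 164, 6.90, 0.796 and 35.1 CPM and estrogen libraries 46.5, 26.6, 27.3, 1.07 and 22.9. At 84 h controls held 2.31, 7.15, 2.04, 83.5 and 2.63 CPM and estrogen libraries 5.48, 3.49, 5.06, 1.86 and 9.69. High libraries occurred with and without treatment. At 108 h controls held 6.93, 33.4, 44.6, 1.78 and 2.003 CPM and CLA libraries 73.3, 4.02, 187, 2.96 and 2.37. At 132 h controls held 51.5, 4.70, 4.36, 1.65 and 126 CPM and CLA libraries 4.94, 5.42, 6.75, 2.68 and 22.3. The groups overlapped in each comparison, and no difference was called: 1.61 ± 1.34 and -2.16 ± 1.201 with CLA, -0.86 ± 1.32 and -1.92 ± 1.21 with estrogen (edgeR adjusted p 0.346, 0.136, 0.757 and 0.391). With SEs of this size a change of several-fold was not detectable. A term for animal-number run moved the CLA value at 108 h to 0.04 (adjusted p 0.988).

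The genes most like Arg1 over the 40 libraries were F5, coagulation factor V (1.06 log2 units, r = 0.86), Pax5, a B cell transcription factor (1.18, r = 0.83), Prg4, which encodes lubricin (1.198, r = 0.84), and Padi4, a protein deiminase (1.21, r = 0.83). Their distances were large beside those of the other members searched, and Arg1's own SD over libraries was 2.13 log2 units. F5, Prg4 and Alox15, a lipoxygenase, are known from resident macrophages of the serous cavities, and a list of 10 such genes was drawn up after these values were seen, so it carries no test. The library with the most Arg1 (187 CPM, CLA at 108 h) had 204 CPM of Alox15 and 318 of Prg4, and ranked first of 40 by the mean of that list. The library with the least (0.796 CPM, control at 60 h) had 1.07 CPM of Alox15 and 2.70 of Prg4, and ranked 38. The fit was loose: the control at 60 h with 164 CPM of Arg1 had 49.7 CPM of Alox15. Macrophage marker means were 6.96 in the first library and 4.99 in the last, and skin gene means were -3.18 and -3.03. The first was a CLA library and the last a control, and CLA libraries had higher marker means. CLA replicate 4 at 108 h had a marker mean of 6.99 with only 2.96 CPM of Arg1. F5 and Prg4 were listed after they were found near Arg1, so the ranks follow Arg1 in part by choice. Gata6 and Icam2 of that list spread less over the 40 libraries (10.1 to 19.9 and 11.5 to 33.6 CPM). Alox15 ran from 0.802 to 204 CPM. The part of other cells or tissue in the spread of Arg1 was not tested.

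**Figure D3:**
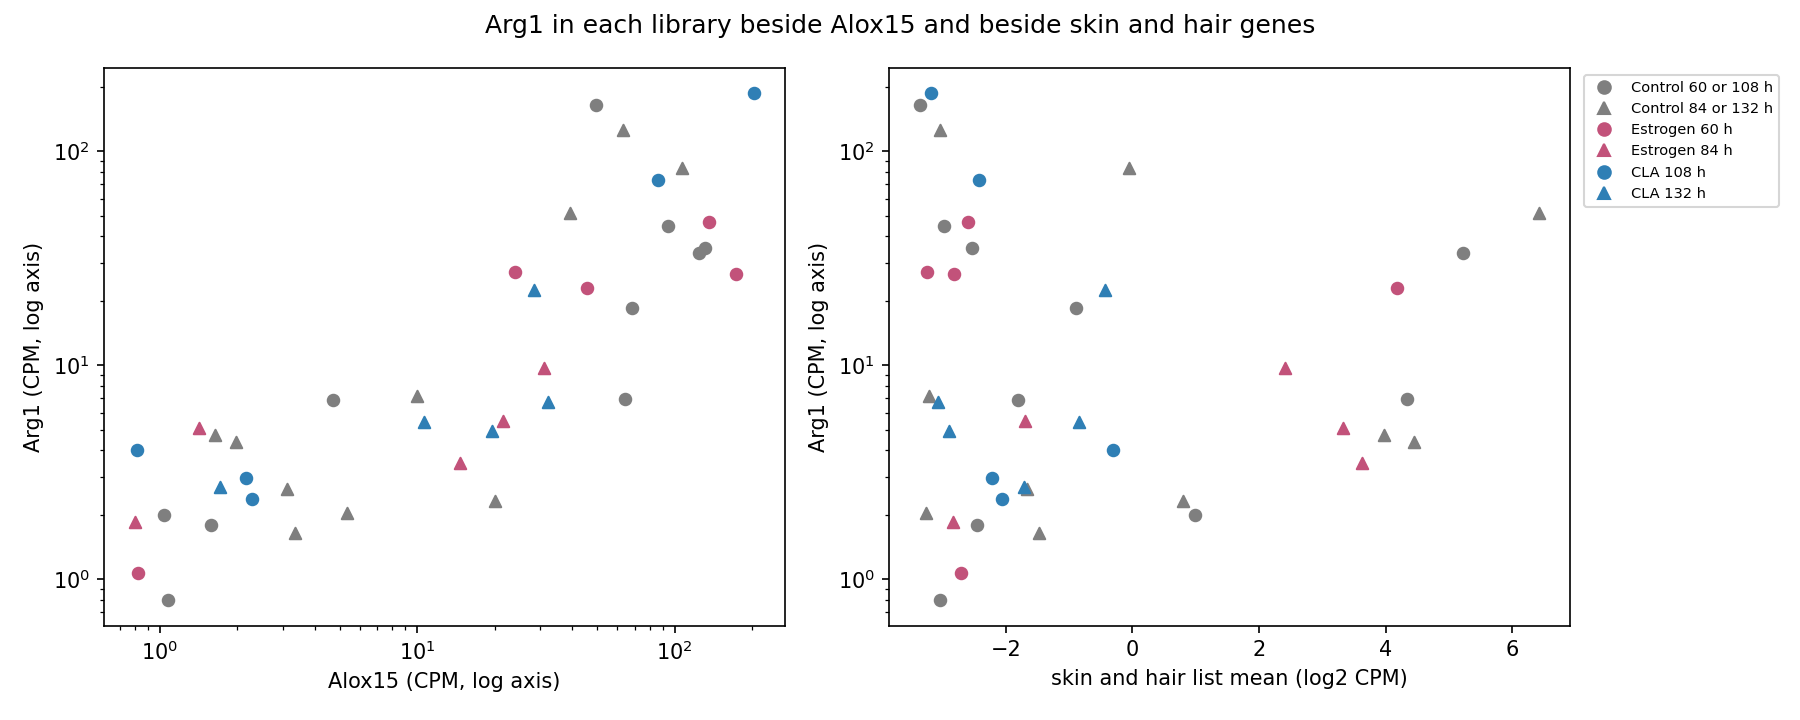
Arg1 in each of the 40 libraries (CPM, log axis) against Alox15 (CPM, log axis) on the left and against the mean log2 CPM of the skin and hair genes on the right. Colour marks control, estrogen or CLA, and circles and triangles mark the earlier and the later time. The library with the most Arg1 (187 CPM) is also the one with 204 CPM of Alox15, and has a skin mean of -3.18.

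Chil3, a chitinase-like protein of activated macrophages, lies on chromosome 3 (106147554 to 106167564, minus strand) and was barely detected, with 0 to 23 counts per library and at most 0.822 CPM. It was at 0 in 3 libraries (2 of the 132 h controls and 1 given estrogen for 84 h), where a count of 0 allows up to 3 counts, or 0.116 to 0.176 CPM, by counting error alone. It passed the low-count filter only in the early table, where controls and CLA at 108 h averaged 0.405 ± 0.343 and 0.22 ± 0.124 CPM (edgeR adjusted p 0.381) and controls and estrogen at 60 h 0.272 ± 0.284 and 0.307 ± 0.217 (adjusted p 0.935). With these counts and this spread between libraries, a difference in Chil3 could have been missed.

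Estrogen called 0 of 8 tested members at 60 h by edgeR, where 6.49% of all genes were called. Nos2 was the 1 member with an unadjusted p under 0.05, and limma (2.24% of all genes) and DESeq2 also called 0. At 84 h the background was 5.42% by edgeR and 2.96% by limma, which called 0 of 8 members. Upper-quartile scaling moved the share of all estrogen calls that were rises from 62.7% to 76.2% at 60 h and from 63.6% to 75.5% at 84 h, and no member's call changed with it. The difference between the CLA effects at 132 h and 108 h was called for 0 of 9 members by edgeR, limma and DESeq2 (4 at an unadjusted p under 0.05), where 0 of 17852 genes were called by edgeR (2216 at an unadjusted p under 0.05), 2 (0.00755%) by limma and 130 by DESeq2. The CLA change differed from the estrogen change for 3 of 8 members tested in the early pair (Stat6, Mrc1 and Nos2), where 32.1% of genes were called, and for 4 of 7 in the late pair (Retnla as well, with Stat6 lost without the libraries rich in skin genes), where 38% were. Between control groups 0 members were called, at 108 h against 60 h (3.34% of genes) or at 132 h against 84 h (0% of genes by edgeR, 2132 genes at an unadjusted p under 0.05 and 528 by DESeq2), with 1 member at an unadjusted p under 0.05 in each.

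The rest of the IL-4/IL-13 pathway was a list of 20 genes. With CLA 7 of 18 tested were called higher and 2 lower at 108 h (median log2 fold change 0.21), with 8 higher and 3 lower of 19 at 132 h (median 0.23), against medians of -0.01 and -0.03 over all genes. Without the libraries rich in skin genes the counts were 4 and 2 of 18 (median 0.21), and 5 and 2 of 19 (median 0.33). In those fits 4001 of 17516 genes were called higher and 3388 lower at 108 h, and 3750 and 3575 of 17514 at 132 h. Ptpn6, the phosphatase SHP-1 of blood cells, rose at 108 h from 19.5 ± 4.55 to 52.5 ± 10.6 CPM, and at 132 h from 15.6 ± 6.54 to 51.4 ± 13.9 CPM. Il1rl1, the receptor for interleukin-33, rose by 0.78 ± 0.28 and 1.42 ± 0.13, and Grb2, an adaptor, by 0.77 ± 0.062 and 0.92 ± 0.074. Tyk2, a Janus kinase, rose at 108 h (0.31 ± 0.10) and Il33 at 132 h (0.87 ± 0.28). Irs1, an adaptor of the insulin and IL-4 receptors, fell by 0.58 and 0.65, Ptpn11, the phosphatase SHP-2, by 0.22 and 0.36, and Cish, a feedback inhibitor of cytokine signals, fell at 132 h by 1.61.

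Of the ligands, Il13 was scarce, with means over 40 libraries of 0.056 RPKM and 0.131 CPM, and was at 0 in 2 libraries. Il4 was detected in every library, with means of 0.329 RPKM and 4.79 CPM. Its counts are higher than its RPKM would give, and which is nearer to its level was not tested. With estrogen 0 of 18 genes of the list were called at 60 h (3 at an unadjusted p under 0.05, 0 by limma and 2 by DESeq2). At 84 h 0 rose and 1 fell of 19, namely Il1rl1 (-0.49 ± 0.13, edgeR adjusted p 0.0288). Mast cell markers fell at the same time, with 6 of 7 called lower at 84 h (median -0.98), where 1.97% of all genes were. Their mean log2 CPM was 1.51 to 2.16 with estrogen against 2.35 to 3.40 in controls. Without the libraries rich in skin genes, with 2 estrogen libraries left, 0 of 7 mast cell genes (median -0.92) and 0 of 19 pathway genes, Il1rl1 included, were called. Mast cells are known to carry Il1rl1, and their part in its fall was not tested.

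Of 20 other markers of alternative activation, 18 were tested with CLA at 108 h, giving 7 rises and 1 fall (median 0.36), and 17 at 132 h, giving 9 rises and 2 falls (median 0.61). The background over all genes at 108 h was 24.9% rises and 23% falls. For 132 h it was 27% rises and 29% falls. Without the libraries rich in skin genes 5 of 18 rose and 0 fell at 108 h, where 42.2% of all genes were called. At 132 h 8 of 18 then rose and 2 fell, where 41.8% were called. With all libraries kept, Egr2, a transcription factor of macrophages, rose from 5.04 ± 2.45 to 40.2 ± 9.19 CPM and from 6.03 ± 3.67 to 42.6 ± 8.97 CPM. Cd200r1, an inhibitory receptor, rose by 2.22 ± 0.19 and 3.44 ± 0.21, Clec7a, the receptor for fungal glucans, by 1.78 ± 0.45 and 3.26 ± 0.41, and Msr1, a scavenger receptor, by 1.81 ± 0.53 and 2.76 ± 0.34. Cd209a fell at 108 h by 0.43, and Kdm6b and Tgm2 fell at 132 h by 0.32 and 0.49. With estrogen 0 of 18 were called at 60 h by edgeR (5 at an unadjusted p under 0.05, 0 by limma and 1 by DESeq2). At 84 h Egr2 was the 1 gene of 17 called, and it rose from 3.51 ± 0.929 to 13.1 ± 4.62 CPM (1.90 ± 0.33, edgeR adjusted p 0.00242).

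Of 20 markers of classical activation other than Nos2, 16 were tested with CLA. At 108 h 5 were called higher and 0 lower (median 0.09), where 24.9% of all genes were called higher. At 132 h 9 were called higher and 2 lower (median 0.88), where 27% of all genes were higher and 29% lower. Irf5, a transcription factor of inflammatory macrophages, rose from 20.6 ± 4.24 to 83.4 ± 11.8 CPM and from 14.4 ± 3.98 to 89.1 ± 21.7 CPM. Irf8 rose by 1.46 ± 0.23 and 1.76 ± 0.31, and Cd80, a costimulatory ligand, by 1.19 ± 0.31 and 1.61 ± 0.29. Ccl5, a chemokine, rose by 1.22 ± 0.23 at 108 h, and Cxcl10, an interferon-induced chemokine, went from 0.108 ± 0.101 to 0.808 ± 0.577 CPM at 132 h. Cxcl9, of the same chemokine family, fell at 132 h by 0.95, and Cd38 by 0.42. With estrogen Ido1, which breaks down tryptophan, rose at both times (1.73 ± 0.46 and 2.78 ± 0.36) from under 1 CPM, Il1b and Cxcl9 fell at 60 h (by 2.12 and 0.71), and Ptgs2 fell at 84 h (by 0.84).

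Arginine is the substrate of both Arg1 and Nos2, and of 12 other genes that handle it or make polyamines from it, 7 were called higher and 2 lower with CLA at 108 h (median 0.36), with 6 higher and 3 lower at 132 h (median 0.18). The polyamine genes led: Sms, spermine synthase, went from 7.29 ± 0.399 to 16.8 ± 3.11 CPM and from 5.65 ± 1.24 to 17.9 ± 3.49 CPM, Odc1, ornithine decarboxylase, rose by 0.88 ± 0.091 and 0.94 ± 0.11, and Srm, spermidine synthase, by 0.68 ± 0.12 and 0.60 ± 0.094. Slc7a1, an arginine transporter, rose by 0.48 ± 0.11 and 0.49 ± 0.12. Nos1 and Nos3, the other nitric oxide synthases, fell by 1.06 and 0.61 at 108 h and by 1.45 and 0.83 at 132 h. Ass1, which remakes arginine, fell at 132 h (-2.75 ± 0.70) with a control group of 13.8 ± 20.8 CPM. With estrogen Slc7a2 and Oaz1 rose at 60 h (0.82 ± 0.20 and 0.23 ± 0.052), where 4.07% of all genes rose. At 84 h 0 of 12 were called by edgeR (4 at an unadjusted p under 0.05, 1 by limma and 2 by DESeq2), where 5.42% of all genes were.

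**Figure D4:**
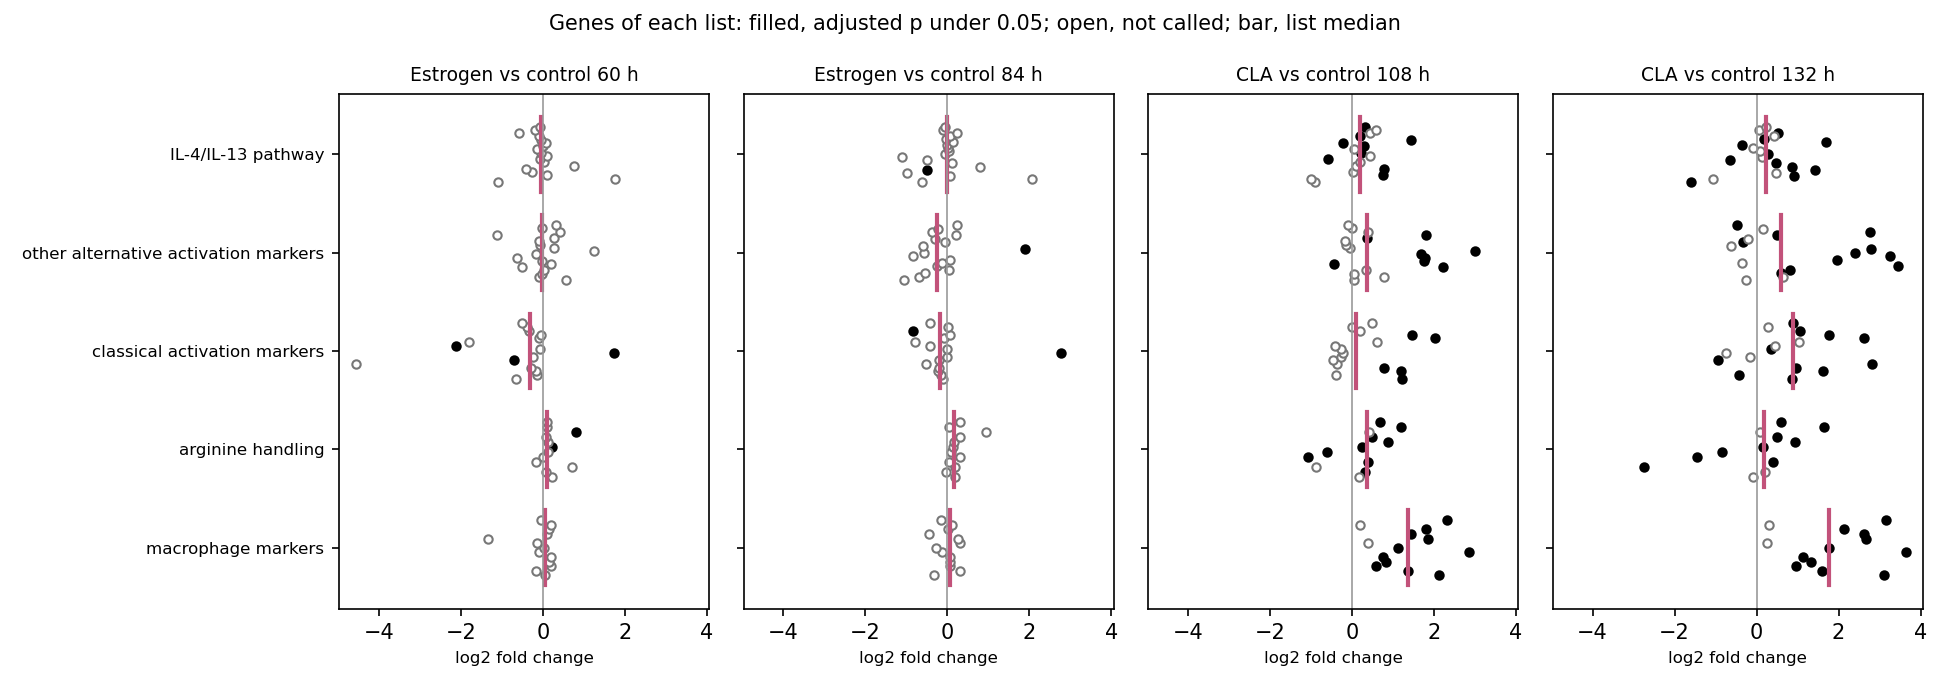
Log2 fold change of each gene of 5 lists in the 4 treatment comparisons. Filled points were called, open points were not, and the vertical bar is the list median. The macrophage medians stand at 1.36 and 1.77 with CLA, and the median of the IL-4/IL-13 pathway at 0.21 and 0.23.

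Macrophage markers themselves rose with CLA. Of 13 tested, 11 rose and 0 fell at both times (medians 1.36 and 1.77), and 10 and 11 rose without the libraries rich in skin genes. For this and the lists below, 24.9% of all genes were called higher and 23% lower with CLA at 108 h, and 27% and 29% at 132 h. Cd68, a lysosomal macrophage protein, went at 108 h from 42.6 ± 5.30 to 308 ± 62.9 CPM, and at 132 h from 31.5 ± 6.23 to 397 ± 109 CPM, while Tyrobp, an adaptor of myeloid receptors, rose by 2.32 ± 0.26 and 3.15 ± 0.22. The mean log2 CPM of the 13 genes was 5.15 to 5.62 in controls and 6.57 to 6.99 with CLA at 108 h, and 4.63 to 5.25 and 6.55 to 7.21 at 132 h. With estrogen 0 of 13 were called at either time by edgeR, limma or DESeq2 (1 at 60 h and 0 at 84 h at an unadjusted p under 0.05). Among markers of other white cells with CLA, 1 of 7 neutrophil and monocyte genes rose at each time (Ccr2) and 0 fell. Of 4 eosinophil genes, the earlier time had 1 called higher and 1 lower, the later time 2 higher and 0 lower. Of 6 B cell genes 0 rose at either time, and 0 and 1 fell. Endothelium markers fell (6 of 6 and 5 of 6), and fibroblast markers rose in 2 of 7 and 6 of 7. The part of each cell type in the members' changes was not tested.

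Each member was also set against these markers, as its log2 CPM minus the mean of the 13 in the same library. An exact 2-sided permutation test of 5 against 5 libraries (smallest p possible 0.00794) was adjusted over 20 tests. The marker mean itself went from 5.38 in controls to 6.76 with CLA at 108 h, and from 4.94 to 6.85 at 132 h. A gene with an unchanged level, in whatever cells, thus lies lower on this measure with CLA and can be called. A call is a difference from the markers and not, by itself, a change in the gene's own level. Il13ra1 at 108 h was so called, with 37.4 ± 3.81 CPM in controls and 35.2 ± 4.32 with CLA. The values do not say in which cells a member changed. Mrc1 kept pace with the markers. Its difference between CLA and control was -0.20 at both times (exact permutation, adjusted p 0.205 and 0.125). Il4ra fell behind by 0.95 and 1.65, Stat6 by 1.09 and 1.57 and Il13ra1 by 1.48 and 1.59 (exact permutation, adjusted p 0.0144 for each), with no overlap between groups. Il2rg fell behind by 0.88 and 1.47 in RPKM (exact permutation, adjusted p 0.0132 for both).

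Retnla fell behind by 0.96 and 1.004 (exact permutation, adjusted p 0.0144 and 0.0244), although its own level rose at 132 h. Nos2 fell behind most, by 2.60 and 3.29 (exact permutation, adjusted p 0.0144 for both). For Arg1 the differences were -0.71 and -2.77 (exact permutation, adjusted p 0.652 and 0.0244), and the call at 132 h was lost when any of 6 libraries was left out (controls 1 and 5, CLA 1, 2, 3 and 4, adjusted p 0.0611 to 0.0855). Chil3 differed by -1.72 and -1.27 (exact permutation, adjusted p 0.127 and 0.205), and it was called at both times with a prior count of 2 and on RPKM. With 0 to 23 counts per library, a larger added value damps its own differences. Like the other calls on this measure, those for Chil3 are not by themselves read as a change in its own level. The part of the marker rise in them was not tested. With CLA, Arg1 minus Nos2 lay 1.89 above control at 108 h and 0.52 above it at 132 h (adjusted p 0.326 and 0.683 by the exact permutation test), turning to -0.22 at 132 h without control replicate 4. Without the libraries rich in skin genes 3 and 2 controls remained, which limits how low p can fall, and 0 members were called. For most members the adjusted p by the exact permutation test was then 0.0595 at 108 h and 0.0866 at 132 h.

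**Figure D5:**
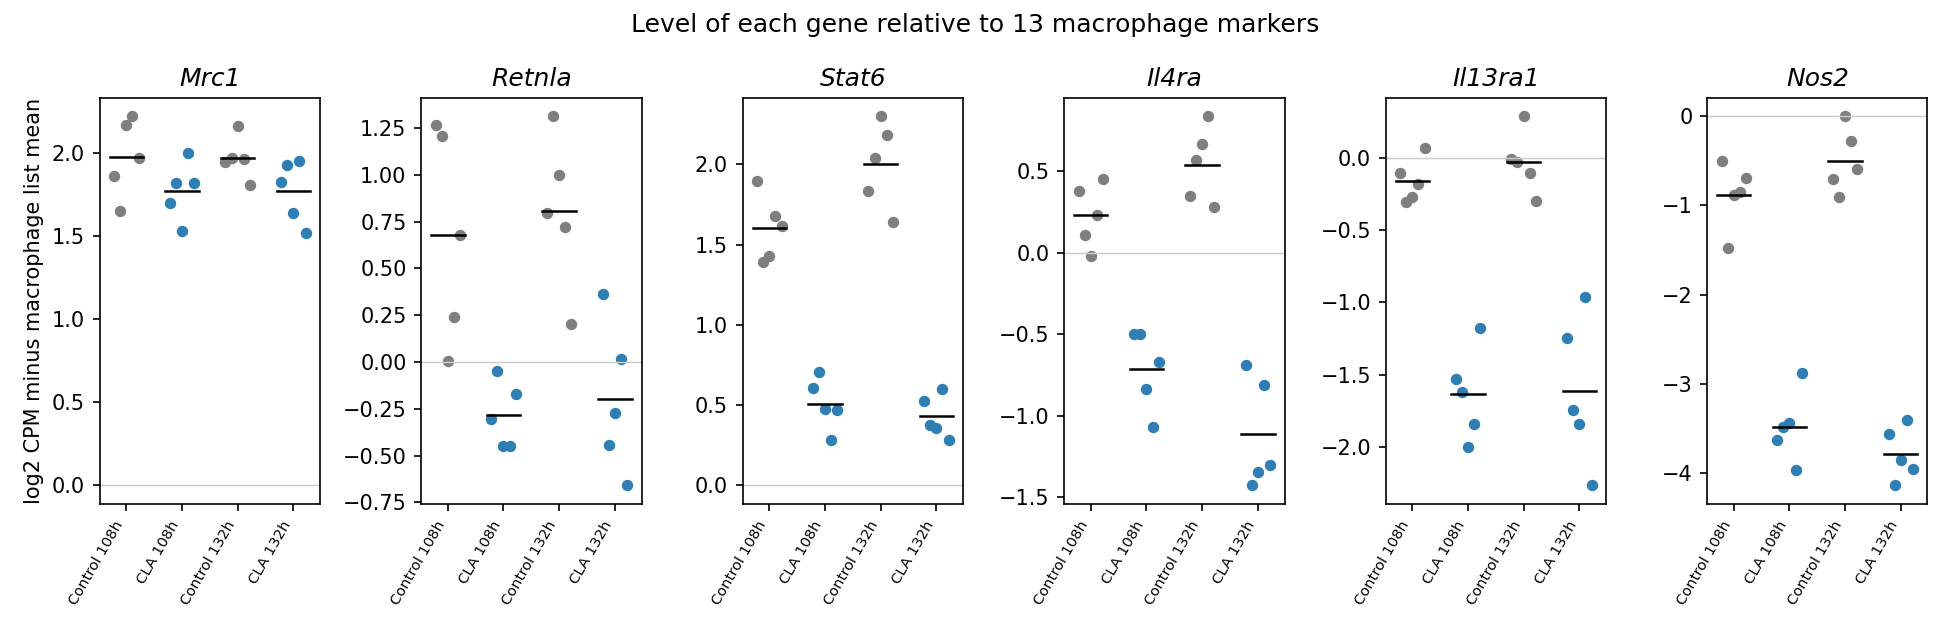
Log2 CPM of 6 members minus the mean of 13 macrophage markers, for control and CLA libraries at 108 h and 132 h. Points are libraries and lines the mean. Mrc1 has means of 1.97 and 1.77 at 108 h and again at 132 h, while the other 5 members lie lower with CLA.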

How the data were processed

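Whole-gland RNA from 40 mice, 5 in each of 8 groups, was sequenced. The authors deposited 1 table of raw counts and 1 of RPKM for 60 h and 108 h and another pair for 84 h and 132 h, on GRCm38 per the submitters' processing notes. For aligner, counter and gene model, names were not given in the sources used here. Groups came from the labels, and replicates were numbered in accession order. Of 780 pairs of libraries none agreed within sampling noise (lowest chi-square per gene 12.0).

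Counts were tested with edgeR 4.0.16 in R 4.3.3 (TMM, filterByExpr with a minimum count of 10 and total of 15, robust quasi-likelihood F test, the 4 groups of a table in 1 fit, and all 40 libraries for the CLA difference between times), with Benjamini-Hochberg adjustment over all genes and a threshold of 0.05. RPKM above 0 in at least 5 libraries was tested with limma 3.58.1 on log2(RPKM + 0.1), which understates changes of low genes. This scale was preferred for Il2rg after its counts were seen. Levels relative to macrophage markers used log2 CPM with a prior count of 0.5 and an exact permutation test. Scripts were tested on simulated data.

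The members, gene lists and tests were chosen with earlier results of these data known. Of each list, up to 4 called genes with the largest rise and up to 4 with the largest fall were named, others by count. The serous cavity list and Alox15, and Krt8 and Cd68 as examples, were chosen after their values were seen. Alternatives were DESeq2 1.42.0, other scalings, filters, pseudocounts, 2 groups alone, a term for animal-number run, the libraries rich in skin genes (mean log2 CPM over 1.5) left out, and each library left out. RPKM for the CLA difference between times and list counts without skin-rich libraries were added after seeing the data.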

Additional observations from a re-analysis of the deposited data

Results flagged for a closer look

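In 9 of 72 groups of 5 libraries, 1 library lay further from its neighbour than Dixon's 95% criterion allows, where chance gives about 1 in 20 groups. Arg1 had 3 such libraries: 164 CPM in control replicate 2 at 60 h, 83.5 CPM in control replicate 4 at 84 h and 22.3 CPM in CLA replicate 5 at 132 h. Control replicate 2 at 60 h also stood above its group for Il4ra (80.9 CPM) and Chil3 (0.762 CPM). The others were Chil3 in control replicate 5 at 132 h (0.309 CPM), Mrc1 in CLA replicate 4 at 108 h (506 CPM), Retnla in control replicate 2 at 84 h (67.3 CPM) and Stat6 in estrogen replicate 2 at 84 h (136 CPM).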

How the results depend on the processing

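No paired analysis was possible because the labels give no replicate number that groups share. Under the alternatives run, Mrc1, Nos2 and Stat6 with CLA at both times, Il4ra at 108 h and Retnla at 132 h kept direction and call, with log2 fold changes of 1.02 to 1.30 and 1.63 to 1.85 (Mrc1), -1.32 to -0.79 and -1.55 to -0.83 (Nos2), 0.23 to 0.39 and 0.27 to 0.52 (Stat6), 0.38 to 0.51 (Il4ra) and 0.79 to 1.14 (Retnla). The larger change of Stat6 with CLA than with estrogen in the late pair lost its call without the skin-rich libraries (0.40, adjusted p 0.0525). A term for animal-number run changed no member's call with CLA. With CLA at 132 h 7 members were called by limma on RPKM with either pseudocount, against 4 by edgeR, and Il2rg reversed from -0.10 to 0.60 and 0.52. With estrogen at 84 h 0 members were called by limma with either pseudocount and without the skin-rich libraries, against 1, and leaving out single libraries gave 0 to 1. Members called relative to macrophage markers went from 6 and 7 to 0 and 0 without the skin-rich libraries, where fewer controls remained (adjusted p 0.0595 and 0.0866 for most). Arg1 relative to Nos2 at 132 h ranged from -0.22 to 1.32 when single libraries were left out, against 0.52. Il4ra with estrogen at 84 h was 1.45 without the skin-rich libraries, against 1.30. Where no cause is given, the cause was not tested.

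Over all genes, 1119 were called with estrogen at 60 h, against 1878 by DESeq2, 593 with no filter, 742 with 2 groups alone, 697 without the skin-rich libraries, 547 and 453 by limma, and 316 to 1210 without single libraries. At 84 h 931 became 1617 by DESeq2, 303 without the skin-rich libraries and 443 to 1152 without single libraries. The CLA difference between times went from 0 to 130 by DESeq2, 2 with no filter, 3 with a minimum count of 50, 2 by limma and 0 to 137 without single libraries. CLA at 132 h against estrogen at 84 h went from 6536 to 3453 without the skin-rich libraries. Controls at 108 h against 60 h went from 576 to 1525 by DESeq2, 94 with no filter, 0 by limma, 0 without the skin-rich libraries and 0 to 747 without single libraries, and at 132 h against 84 h from 0 to 528 by DESeq2 and 0 to 693 without single libraries. Upper-quartile scaling moved the share of rises among calls from 53.6% to 37.5% for CLA at 108 h against estrogen at 60 h, and shifted the median of all genes by -0.10 for the late pair. Depth limited Chil3. The cause of the low Il2rg counts was not tested.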
